A study of Homo sapiens with 2 samples.

Results

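DEAD-box (DDX) and DEAH-box (DHX) genes encode the largest family of RNA helicases, and their mRNAs are described here in an RNA immunoprecipitation from Huh-7 cells. Members were the genes of the deposited expression table whose symbol is DDX or DHX followed by a number, without pseudogene symbols ending in P plus digits (8 symbols) and without 1 further symbol that the selection leaves out by name. This gave 53 of 25556 genes, 38 DDX and 15 DHX. The families are split by symbol, and the motif of each protein was not checked. Of these, 48 (33 DDX and 15 DHX) averaged 1 RPKM or more over the libraries (RPKM is the number of reads scaled to exon length and to library depth) and are called measured below. The genes were selected on their symbols, and the family was picked as a subject from the IP over input values of these same libraries, so everything below is a description of them.

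The helicases of this family use ATP to pull short RNA duplexes apart or to strip proteins from RNA, and are named after the letters of a conserved motif (Asp-Glu-Ala-Asp or Asp-Glu-Ala-His) in their ATP-binding core. DEAD-box proteins open duplexes locally and often act as clamps on RNA, whereas most DEAH-box proteins move along RNA from its 3′ end, and several of them are switched on by G-patch proteins. They drive the rearrangements of the spliceosome, the assembly of ribosomes in the nucleolus, mRNA export, translation and decay, and the sensing of viral RNA.

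The study comprised 1 IP and 1 input library from wild-type, untreated Huh-7 cells, a long-established human line of hepatocellular carcinoma. The input came from 10% of the lysate and the IP from 90%. SRSF7 is the antibody's target in the design text, a splicing factor rich in serine and arginine. The treatment label of the IP library spells it SPSF7, whereas in the sample protocol the antibody is one to YTHDF2, a reader of methylated adenosine, used on poly(A) RNA. The files do not settle which protein was precipitated, so the libraries are called the IP and the input.

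Reads in genes, recovered whole from the RPKM values, numbered 5897293 in the IP and 2782045 in the input. As each group is 1 library, no difference has a replicate check and no test was possible. The 95% intervals of ratios cover counting error in single reads only, and they are too narrow if mates were counted separately, which was not tested. Over all genes 76.7% of low counts were even, and counting both mates would make even counts more common. Interval counts over all members are also given with reads halved, and intervals of single genes use unhalved reads unless stated. All 9 hepatocyte markers were measured, at 49.1 to 1613 RPKM in the IP and 54.5 to 2814 in the input. Of the markers of other cell types, the 6 erythroid genes summed to 698 RPKM in the IP and 1057 in the input, led by HBB, the 4 immune genes to 4.71 and 12.8, and the 2 endothelial genes in the table to 2.49 and 3.76, where CDH5 was listed at 0 in the input. The 3 fibroblast genes summed to 2.46 and 1.64. Their part in the values below was not tested.

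The IP over input ratios of the 48 measured members ran from 0.451 for DDX59 to 6.13 for DDX12P, a pseudogene. These ends rest on 44 IP and 46 input reads and on 52 IP and 4 input reads. Among the roles with 5 or more measured members the spliceosomal one had the highest median. The measured members took 0.609% of IP reads (exact binomial interval 0.603 to 0.615%) and 0.436% of input reads (0.428 to 0.444%). All protein-coding genes together took 90.6% of IP reads and 69.2% of input reads, so a larger share in the IP is not particular to these members. On the scale log2((IP + 1)/(input + 1)), 11 of 48 members had an IP level 2-fold or more above the input and 0 one 2-fold or more below, against 11.3% and 8.25% of all 14057 measured genes and 8.06% and 3.91% of measured protein-coding genes. The median log2 ratio was 0.39, with 0.14 for all measured genes and 0.17 for protein-coding ones. Among the 40 members with at least 100 reads, 10 were at least 2-fold higher and 0 lower, against 9.31% and 3.56% of protein-coding genes of that depth. The ratios of these 40 members ran from 0.635 for DDX52 to 3.67 for DHX33, a 5.78-fold range. The counting interval lay above a ratio of 1 for 26 members (31.4% of all measured genes and 37.9% of protein-coding ones) and below 1 for 7 (18.6% and 20.6%). With reads halved these were 24 members (23.8% of all measured genes) and 6 (12.8%).

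The direction of single genes depends on how the libraries are scaled, while their order does not. As deposited, 35 members had a ratio above 1 and 13 below, against 5941 and 3908 of the 9857 measured protein-coding genes. When both libraries were scaled to their protein-coding reads, which multiplies each ratio by 0.764, 25 members remained above 1, as did 4066 protein-coding genes. When the libraries were scaled to an equal RPKM sum, which multiplies each ratio by 2.39, 0 of the 48 lay below 1. Only 412 of the 9857 protein-coding genes did so. Ratios are given as deposited, and each gene's percentile among all measured genes, which none of these scalings changes, stands beside the main ones.

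**Figure D1:**
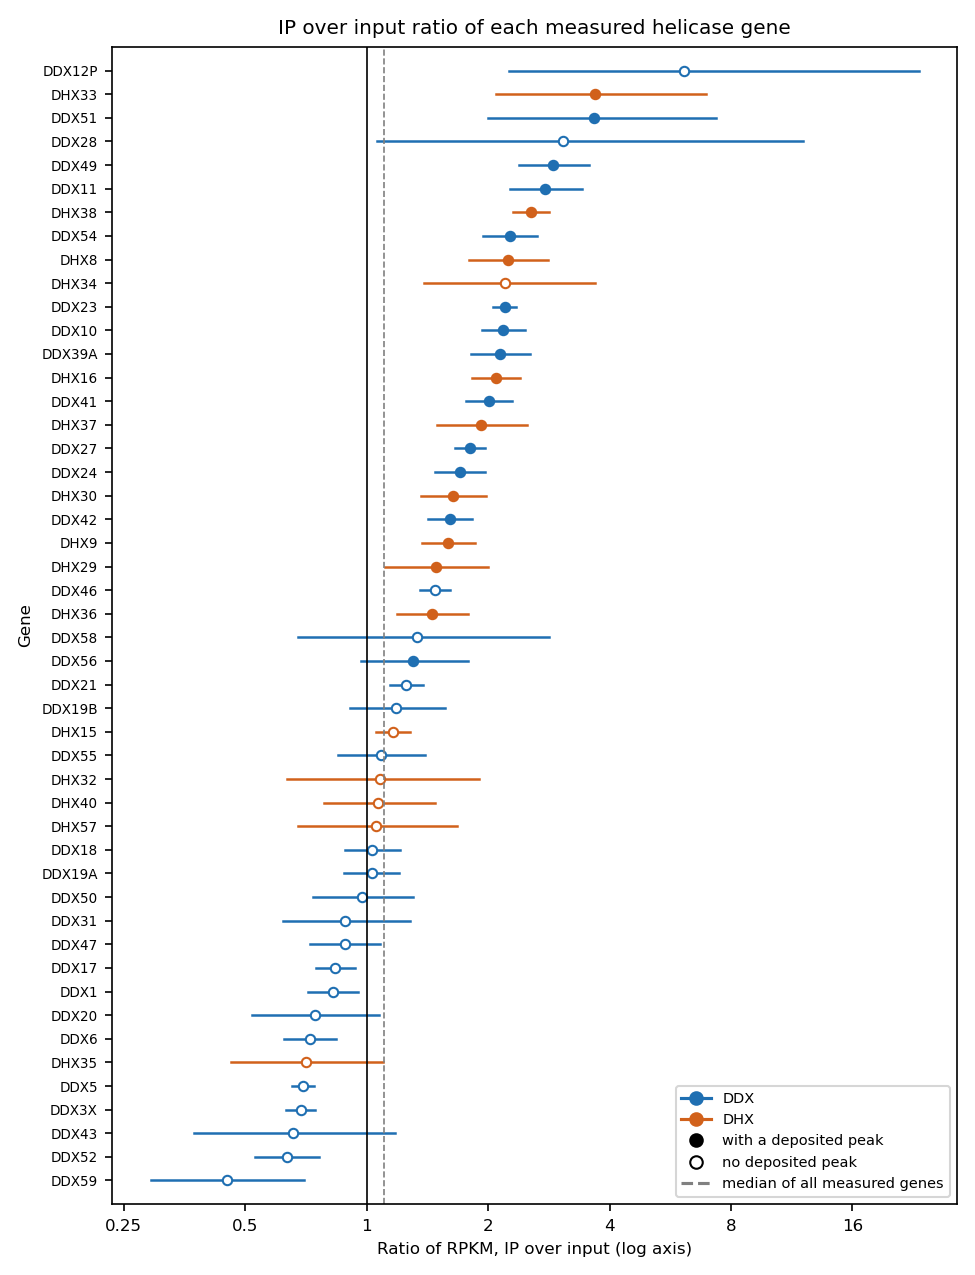
Ratio of IP over input RPKM of the 48 measured helicase genes (log axis), with lines for the 95% counting interval, blue for DDX and orange for DHX, filled points for genes with at least 1 deposited peak and a dashed line at the median of all measured genes. The filled points lie at ratios of 1.31 and above, and the lowest ratio, 0.451, is that of DDX59.

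Both families held high members, and DHX35 was the only DHX member with a ratio below 1. The 33 DDX members had a median log2 ratio of 0.22 and the 15 DHX members one of 0.63. On protein-coding reads these medians became -0.06 and 0.26, and with equal RPKM sums 1.37 and 1.81. Of the DDX members 21 had a ratio above 1 and 12 below, and of the DHX members 14 and 1. Among the 9857 measured protein-coding genes 5941 had a ratio above 1 and 3908 below. The counting interval lay below 1 for 7 DDX and 0 DHX members (20.6% of protein-coding genes) and above 1 for 15 and 11 (37.9%). At least 2-fold higher were 8 of 33 DDX members and 3 of 15 DHX members, against 8.06% of protein-coding genes. The difference of the medians was 0.42 and fell to 0.16 once members with exon bases in common with a same-strand gene were left out. Members are not replicates, and the difference between the families was not tested.

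Helicases of the spliceosome stood high as a group, in a list that, like the other role lists, was chosen with earlier results of these data known. Of the 9 measured members of this list, 8 had a counting interval above 1 and 3 were at least 2-fold higher, where all measured genes gave 31.4% and 11.3% and protein-coding genes 37.9% and 8.06%. Their median log2 ratio was 0.97, or 0.60 on protein-coding reads and 2.12 with equal RPKM sums. DDX23, the human Prp28 that exchanges U1 for U6 at the 5′ splice site, had the most RPKM of the 48 members in both libraries, at 155 RPKM in the IP (4973 reads) and 70.7 in the input (1068 reads). Its ratio was 2.20 (2.06 to 2.35), at percentile 85.8 of all measured genes.

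Of the DEAH-box helicases that act one after another in the splicing cycle, DHX16, DHX38 and DHX8 had ratios of 2.09 to 2.56. The one that takes the spliceosome apart, DHX15, stood lower. DHX16, the human Prp2 that activates the spliceosome for the first step, had 49.5 RPKM in the IP and 23.7 in the input, a ratio of 2.09 (1.82 to 2.40). DHX38, the human Prp16 that remodels it before the second step, had 66.1 RPKM in the IP (2460 reads) and 25.9 in the input (454 reads), and its ratio of 2.56 (2.31 to 2.83) stood at percentile 90.1. DHX8, the human Prp22 that releases the spliced mRNA, had 7.49 and 3.34 RPKM, a ratio of 2.24 (1.80 to 2.82).

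DHX15, the human Prp43 that disassembles the spliceosome and also serves in ribosome assembly, had 29.4 RPKM in the IP (1415 reads) and 25.3 in the input (574 reads). Its ratio of 1.16 (1.05 to 1.28) was near the middle of all genes, at percentile 51.4. The ratios of DHX38, DHX8 and DHX16 were 2.20 times (counting interval 1.91 to 2.53), 1.93 times (1.52 to 2.45) and 1.80 times (1.52 to 2.12) that of DHX15, and these quotients do not depend on the scaling.

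The other spliceosomal members spread more widely. DDX41, linked to the catalytic spliceosome, had 48.2 and 24.0 RPKM, a ratio of 2.01 (1.76 to 2.30). DDX42, which associates with SF3B1 of the U2 particle, had 22.4 and 14.0 RPKM and a ratio of 1.61 (1.42 to 1.82). DDX46, the human Prp5 that helps the U2 particle onto the branch point, had 39.7 and 26.9 RPKM and a ratio of 1.48 (1.35 to 1.61). DHX35 was the only member of the list with a ratio below 1, at 0.708 with an interval of 0.461 to 1.10 that includes 1, on 57 IP and 38 input reads.

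**Figure D2:**
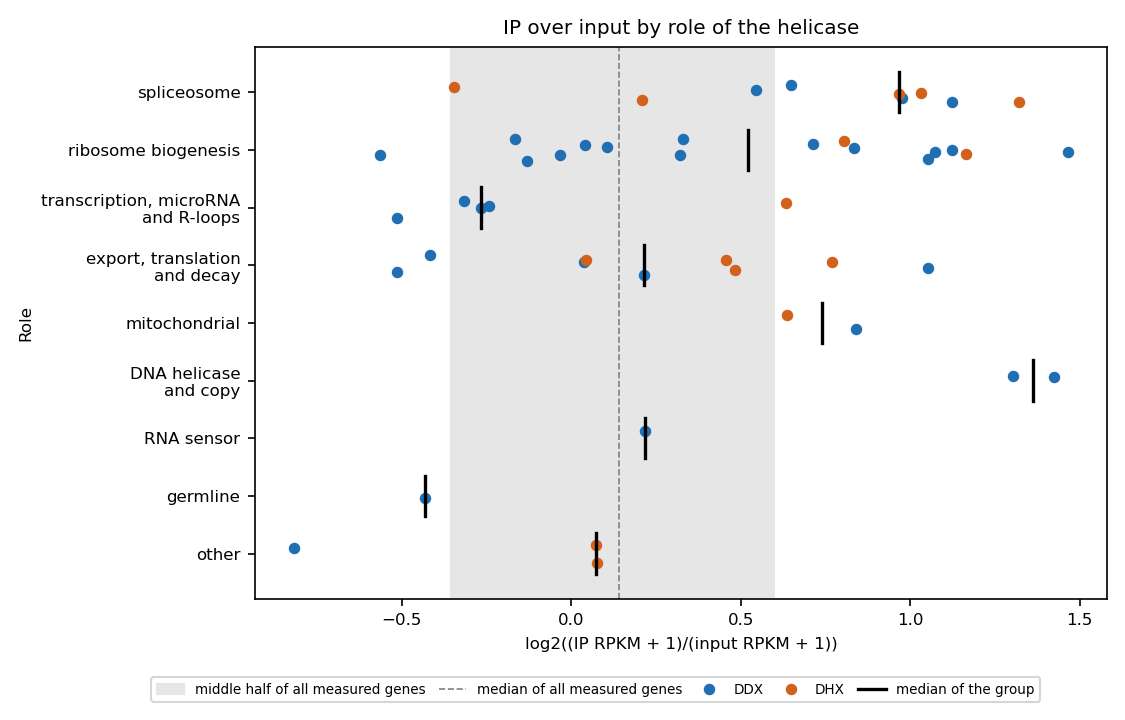
log2((IP RPKM + 1)/(input RPKM + 1)) of each measured helicase gene (points, blue for DDX and orange for DHX) by role, with a bar at each group's median, a dashed line at the median of all measured genes and grey shading between their quartiles. The spliceosomal median stands at 0.97 and that of the transcription, microRNA and R-loop group at -0.27.

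Helicases of ribosome assembly ran from a ratio of 0.635 for DDX52 to 3.67 for DHX33. Of the 16 measured members, 9 had a counting interval above 1 and 1 below, and 5 were at least 2-fold higher. Protein-coding genes gave 37.9%, 20.6% and 8.06%. The median log2 ratio of the list was 0.52 (0.17 on protein-coding reads and 1.75 with equal RPKM sums). DDX49, an enzyme of small subunit assembly, had 36.6 RPKM in the IP (714 reads) and 12.6 in the input (116 reads), a ratio of 2.90 (2.38 to 3.56) at percentile 92.6. It ranked 9 of the 48 members by IP RPKM and 18 by input RPKM. DDX54, a nucleolar helicase, had 32.2 and 14.3 RPKM, a ratio of 2.26 (1.94 to 2.64), and DDX10 of the small subunit processome had 30.1 and 13.8 RPKM, a ratio of 2.18 (1.94 to 2.47).

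The highest ratios of the ribosome assembly list rested on few input reads. DHX33 had 3.19 RPKM in the IP (109 reads) and 0.869 in the input (14 reads), a ratio of 3.67 (2.10 to 6.94) at percentile 95.1. DDX51 had 2.48 and 0.679 RPKM (93 and 12 reads), a ratio of 3.66 (2.00 to 7.33). DHX37 of the small subunit processome had 8.14 and 4.23 RPKM, a ratio of 1.92 (1.497 to 2.497). DDX27, the second most abundant helicase mRNA of the IP, had 78.4 RPKM there and 43.5 in the input, a ratio of 1.80 (1.65 to 1.96).

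Lower in this list stood DDX24 at 1.70 (1.48 to 1.97), DDX56 at 1.31 (0.966 to 1.78), DDX55 at 1.09 (0.851 to 1.40) and DDX18 at 1.03 (0.882 to 1.21). DDX31 had a ratio of 0.886 (0.620 to 1.28) and DDX47 one of 0.882 (0.723 to 1.08), both with intervals that include 1. DDX52 had 4.98 RPKM in the IP (280 reads) and 7.85 in the input (208 reads), and its ratio of 0.635 (0.529 to 0.763) was the lowest among members with at least 100 reads, at percentile 19.5.

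The nucleolar paralogs DDX21 and DDX50, which lie next to each other on chromosome 10, had ratios whose quotient held 1 in its counting interval. DDX21, which couples RNA polymerase I and II transcription to rRNA processing, had 56.4 RPKM in the IP (1655 reads) and 45.0 in the input (622 reads), a ratio of 1.26 (1.14 to 1.38). DDX50 had 9.67 and 9.91 RPKM (153 and 74 reads), a ratio of 0.975 (0.734 to 1.31). The quotient of both ratios was 1.29, with an interval of 0.961 to 1.72.

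The mRNAs of the 4 DEAD-box members of the list for transcription, microRNA processing and R-loops had ratios below 1. Of the 5 measured members of this list, 3 had a counting interval below 1 and 1 above, against 20.6% and 37.9% of protein-coding genes. The median log2 ratio was -0.27 and turned to 0.96 with equal RPKM sums. DDX5, the p68 helicase that serves as a coactivator and in the Drosha complex, had 48.9 RPKM in the IP (2470 reads) and 70.4 in the input (1676 reads), a ratio of 0.695 (0.653 to 0.740) at percentile 22.7. It ranked 2 by input RPKM and 6 by IP RPKM among the 48 members.

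DDX17, the p72 paralog of DDX5, had 14.5 and 17.3 RPKM (853 and 481 reads), a ratio of 0.837 (0.747 to 0.937) at percentile 31.7. The ratio of DDX5 was 0.831 times that of DDX17 (0.731 to 0.944). DDX1, a helicase of the tRNA ligase complex, had 23.7 and 28.7 RPKM and a ratio of 0.825 (0.715 to 0.952). With reads halved its interval ended at 1.01 and included 1, which left 2 intervals of this list below 1. DDX20, also called Gemin3 and part of the SMN complex that builds the spliceosomal particles, had a ratio of 0.744 (0.519 to 1.07). DHX9, which unwinds R-loops and duplexes of inverted Alu repeats, was the exception, with 21.7 RPKM in the IP (756 reads) and 13.7 in the input (224 reads), a ratio of 1.59 (1.37 to 1.86) at percentile 71.0.

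Helicases of mRNA export, translation and decay went both ways. The median log2 ratio of the 9 measured members was 0.21 (-0.12 after scaling to protein-coding reads). Of these members, 4 had a counting interval above 1 and 2 below, and 1 was at least 2-fold higher. Measured protein-coding genes gave 37.9%, 20.6% and 8.06%. DDX3X, which helps ribosomes start on mRNAs with structured leaders, had 15.1 RPKM in the IP (1407 reads) and 21.9 in the input (966 reads), a ratio of 0.687 (0.633 to 0.747) at percentile 22.3. DDX6, the P-body helicase of decapping and translational repression, had 6.86 and 9.50 RPKM (464 and 303 reads), a ratio of 0.722 (0.624 to 0.838) at percentile 24.6. DDX39A, a helicase of the mRNA export machinery, had 34.3 and 16.01 RPKM (780 and 172 reads), a ratio of 2.14 (1.81 to 2.54) at percentile 84.9.

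DEAH-box members of the export, translation and decay list were at or above a ratio of 1. DHX34 of nonsense-mediated decay had 3.08 and 1.40 RPKM (103 and 22 reads), a ratio of 2.21 (1.38 to 3.68). DHX29, which aids the scanning of structured leaders, had a ratio of 1.48 (1.11 to 2.00), and DHX36, which unfolds G-quadruplexes, one of 1.45 (1.19 to 1.79). With reads halved, as if both mates of each pair had been counted, the interval of DHX29 began at 0.987 and so included 1. DHX57 stood at 1.05 (0.675 to 1.68).

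The near-identical export helicases DDX19A and DDX19B, neighbours on chromosome 16, did not differ beyond counting error. DDX19A had 11.3 RPKM in the IP and 10.9 in the input, a ratio of 1.03 (0.881 to 1.204), and DDX19B had 7.46 and 6.29 RPKM, a ratio of 1.19 (0.907 to 1.56). The quotient of their ratios was 0.868 (0.640 to 1.18). Both share exon bases with the clone-named gene AC012184.2, over 23.9% and 15.96% of their length, so the split of reads between them is uncertain.

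DDX11, a DNA helicase of sister chromatid cohesion with an iron-sulfur cluster, had 13.4 RPKM in the IP (663 reads) and 4.85 in the input (113 reads), a ratio of 2.77 (2.26 to 3.41) at percentile 91.7. DDX12P, a pseudogene copy of DDX11 and the only measured member that is not protein coding, had 2.99 and 0.488 RPKM (52 and 4 reads). Its ratio of 6.13 (2.26 to 23.3) was the highest of the 48 members, and it rests on 4 input reads. Reads of near-identical copies can be assigned to either gene, so both values are uncertain.

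Of the mitochondrial helicases, DHX30, which binds mitochondrial transcripts and ribosomes, had 11.5 and 7.01 RPKM and a ratio of 1.63 (1.36 to 1.97). DDX28, a factor of the mitochondrial large ribosomal subunit whose gene has a single exon, had 26 IP and 4 input reads, a ratio of 3.07 (1.06 to 12.1). With reads halved its interval began at 0.694 and so included 1.

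Of the members with other roles, DDX59 had the lowest ratio of the 48 measured members, 0.451 (0.292 to 0.698) on 44 IP and 46 input reads, at percentile 9.75. DHX32 and DHX40 stood at 1.08 (0.633 to 1.90) and 1.07 (0.784 to 1.47). The germline helicase DDX43 had 32 and 23 reads and a ratio of 0.656 (0.372 to 1.17). DDX58, which encodes the viral RNA sensor RIG-I, had 34 and 12 reads and a ratio of 1.34 (0.675 to 2.83).

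The remaining 5 members lay under 1 RPKM on average. The interferon-induced paralogs DDX60L and DDX60 had few reads, DDX60L 44 in the IP and 38 in the input (ratio 0.546, 0.346 to 0.866) and DDX60 5 and 6 (0.393, 0.0949 to 1.55). The ratio of DDX60 was 0.720 times that of DDX60L, with an interval of 0.203 to 2.55. DDX11L8 and DDX11L2, DDX11-like transcripts of subtelomeric origin, had 0 IP reads and 2 and 1 input reads, and no ratio is given. DDX3Y is Y-linked and its level is not given.

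**Figure D3:**
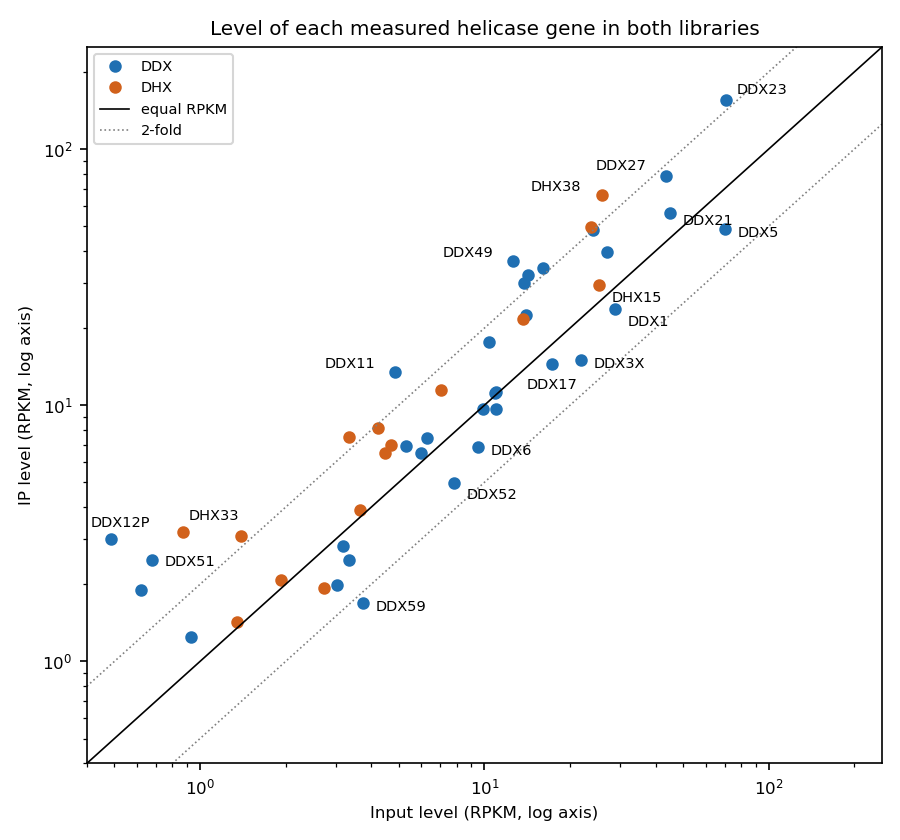
Level of each measured helicase gene in the IP against the input (RPKM, both axes log), blue for DDX and orange for DHX, with a solid line at equal RPKM and dotted lines at 2-fold. DDX23 lies at the top right at 70.7 and 155 RPKM, and DDX5, with almost the same input level, lies below the line of equality at 48.9 RPKM in the IP.

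The peaks deposited by the authors as enriched in the IP marked 21 of the 48 measured members, against 21.5% of all measured genes and 30.0% of measured protein-coding genes. All 21 had at least 105 reads, so they were also 21 of the 40 members with at least 100 reads. Of protein-coding genes with at least 100 reads, 38.3% had a peak. The list gave 64 peaks in these members, 40 in 12 DDX genes and 24 in 9 DHX genes. Of the 64, 49 (76.6%) had a deposited false discovery rate of at most 0.05, against 60.3% of all 7643 deposited peaks. These 49 lay in 20 members. The only DDX51 peak (rate 0.0623) was not among them, and of the DHX37 peaks only the one with a fold of 25.4 (rate 0.0414) was. Counted at any deposited rate, DDX10 carried 6 peaks, DDX11, DDX24, DDX39A, DHX37, DHX38 and DHX9 carried 5 each, and DDX23 and DDX49 4 each. DDX42 and DDX54 had 3 each, 4 members had 2 and 6 had 1. The 11 members with at least 3 peaks, all among the 40 with at least 100 reads, stand beside 6.85% of all measured genes and 9.69% of protein-coding genes. Of protein-coding genes with at least 100 reads, 12.7% had as many peaks. Peaks and ratios come from the same 2 libraries, so 1 does not support the other.

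Members with a peak had ratios from 1.31 (DDX56) to 3.67 (DHX33), with a median of 2.09, and a median of 952 reads over both libraries. Members with no peak had a median ratio of 1.03 and a median of 274 reads. Among the members without a peak were deeply covered ones, DDX5 with 4146 reads, DDX46, DDX3X, DDX21 and DHX15. DDX12P, DDX28 and DHX34 had ratios above 2 without a peak, on 56, 30 and 125 reads.

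The member peaks lay more often toward the 5′ end of the merged exons than toward the 3′ end. The centres of 33 of the 64 peaks (51.6%) fell in the 5′-most of 3 equal parts of the exon length, 20 in the middle part and 11 (17.2%) in the 3′-most part. Among all 7643 deposited peaks the shares were 40.02%, 38.2% and 21.8%. The DDX peaks were split 22, 14 and 4 and the DHX peaks 11, 6 and 7. Peaks of 1 gene share their reads, so these counts are not independent. A peak covered a median of 126 exonic bases (51 to 1044), and 32 of the 64 touched more than 1 exon.

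**Figure D4:**
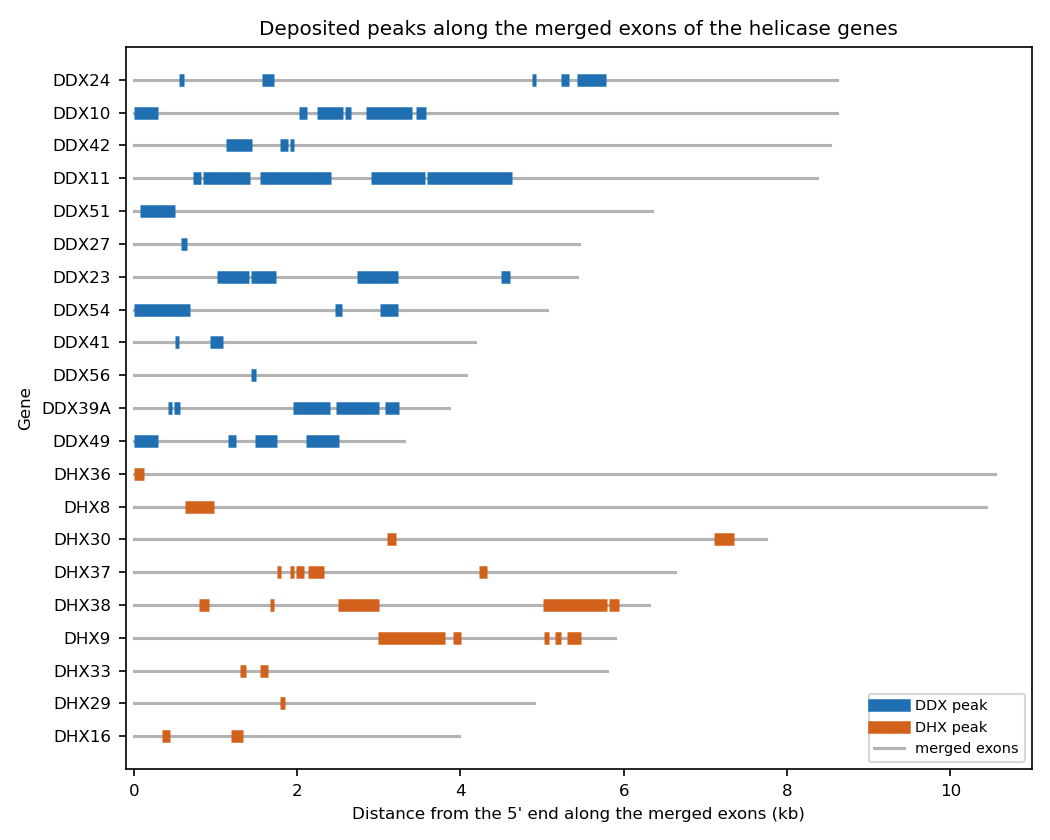
Deposited peaks (blue for DDX, orange for DHX) along the merged exons (grey lines) of the 21 helicase genes that carry one, as distance in kilobases from the 5′ end. The peaks of DDX10 and DDX42 leave the 3′ part of the exons bare, while 3 of the 5 peaks of DHX9 lie in its last exon.

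Among the helicase peaks, the smallest false discovery rates in the authors' deposited table belonged to DDX23. An internal exon of 17 merged exons, the 9th from the 5′ end, held a pair of adjoining DDX23 peaks at chr12:48837656-48838040 and chr12:48837326-48837631, with deposited folds of 2.08 (rate 2.36e-26) and 2.13 (rate 1.38e-23). The next smallest rate was that of the DDX10 peak at chr11:108852153-108917916, which spanned exons 20 to 23 of 25 and covered 569 exonic bases (fold 2.25, rate 2.62e-09). These rates come from 1 IP and 1 input. Coordinates are as in the deposited file, whose build the labels and headers do not name, and starts may count from 0, since the first DDX10 peak starts at 108665068, 1 base before the first exon base of the gene in the expression table, 108665069.

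The peaks of the other members with several differed in place. In DDX11 they ran from exon 4 to exon 19 of 29, and the largest, at chr12:31091815-31096651, covered 1044 exonic bases (authors' deposited fold 9.36, false discovery rate 0.0453). In DHX38 they ran from exon 3 to the last exon, with the smallest rate in exons 3 and 4 (fold 2.15, rate 2.63e-08 in the authors' deposited table). In DHX9 the 3 peaks of the last exon lay between chr1:182887114 and 182887564, at deposited folds of 2.18, 2.32 and 2.23. In DDX49 a peak started at the first exon, and the one with the smallest rate (3.72e-07, fold 2.38) covered 401 bases of exons 9 to 11.

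A handful of peaks carried very high folds. The authors' deposited table gives folds of 25.4 to 29.7 for 5 peaks in DDX56, DHX29, DHX33 (2 peaks) and DHX37. They come to about 12, 13 or 14 times 2.12, the ratio of all IP to all input reads, and how the caller set them is not stated. The other 59 member peaks had folds from 2.05 to 9.36, with a median of 2.41.

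Helicase genes were long and rich in exons, with a median of 5689 merged exon bases and 16.5 merged exons, against 5025 and 11 for measured protein-coding genes. DHX genes had a median of 24 merged exons and DDX genes 15. Across the 48 measured members, Spearman's rho of the log2 ratio was -0.14 with merged exon length, 0.21 with the number of merged exons and 0.03 with the input RPKM. Among all measured protein-coding genes the same values were 0.21, 0.20 and -0.16. For the GC content of the RefSeq promoter (GRCh38.p14, 250 bases before to 50 after the start), known for 43 members (89.6%), rho was -0.22, and it was 0.15 for the 8252 protein-coding genes with a promoter (83.7%). These are correlations across genes of 1 pair of libraries, which share their depth and length scale.

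Genes of other RNA helicases and of helicase cofactors were described from lists. Of the 18 measured RNA helicases outside the DDX and DHX names, 1 was at least 2-fold higher on the log2 scale and 0 lower. Protein-coding genes gave 8.06% and 3.91%. This list had 9 counting intervals above 1 and 2 below, against 37.9% and 20.6% of protein-coding genes. The median log2 ratio was 0.30, or 0.0026 after scaling to protein-coding reads. UPF1, the helicase of nonsense-mediated decay, stood at 2.89 times its input level (2.48 to 3.39) and HELZ2, a nuclear coactivator, at 2.76 (1.83 to 4.32). At the other end were SUPV3L1 of the mitochondrial degradosome at 0.629 (0.444 to 0.894) and the translation helicase EIF4A2 at 0.758 (0.694 to 0.829). With reads halved the interval of SUPV3L1 was 0.382 to 1.05 and included 1, which left 1 interval of this list below 1. SNRNP200, which unwinds U4 from U6 after DDX23 has acted, stood at 1.94 (1.78 to 2.11).

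The G-patch proteins, several of which switch on DEAH-box helicases, lay almost wholly on the high side. Of 20 measured genes, 18 had a counting interval above 1, 0 had one below and 5 were at least 2-fold higher, where protein-coding genes gave 37.9%, 20.6% and 8.06%. Their median log2 ratio was 0.64 (0.29 on protein-coding reads and 1.83 with equal RPKM sums). CHERP, which shares exon bases with the clone-named AC008764.1, stood at 3.80 (3.20 to 4.54) and GPATCH8 at 2.94 (2.51 to 3.45). The lowest were AGGF1, which has 35.9% of its length in common with AC008581.2, at 0.839 (0.681 to 1.04) and GPATCH2 at 1.09 (0.888 to 1.35). GPATCH4, a nucleolar G-patch protein, was the most abundant, at 314 IP and 145 input RPKM, a ratio of 2.16 (2.06 to 2.28).

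Of 18 cofactors of DEAD-box helicases, 13 had a counting interval above 1 and 4 below, against 37.9% and 20.6% of protein-coding genes. At least 2-fold higher were 2 of the cofactors and 1 was lower, against 8.06% and 3.91%. With reads halved, 12 intervals lay above 1 and 2 below, since those of the translation factors EIF4H and PDCD4 then included 1. Their median log2 ratio was 0.40 (0.02 after scaling to protein-coding reads). EIF4G1, the scaffold that activates the eIF4A helicases, stood at 2.98 (2.82 to 3.16) with 14 peaks, and NOM1, a nucleolar MIF4G protein, at 2.73 (2.30 to 3.26). MAGOH of the exon junction complex had 222 reads in either library and stood at 0.472 (0.390 to 0.571), and LSM14A, a P-body partner of DDX6, at 0.779 (0.682 to 0.890).

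**Figure D5:**
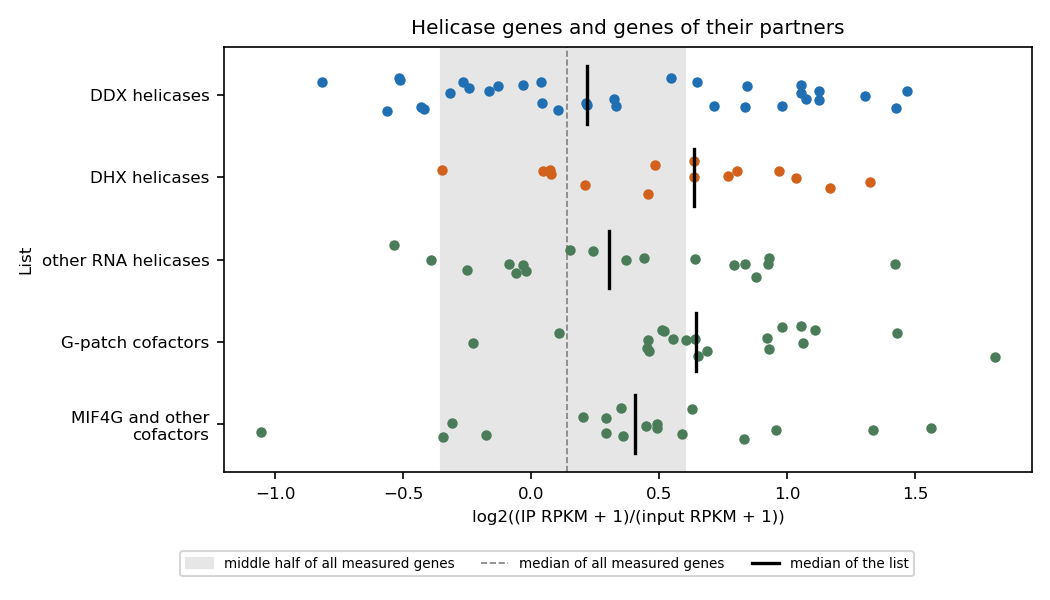
log2((IP RPKM + 1)/(input RPKM + 1)) of the DDX and DHX genes and of 3 lists of other RNA helicases or helicase cofactors (1 point per measured gene), with a bar at each list's median, a dashed line at the median of all measured genes and shading between their quartiles. The G-patch list has a median of 0.64, next to the DHX genes at 0.63.

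Overlapping genes limit some of these values. Of the 48 measured members, 7 have exon bases in common with a gene of the same strand, DDX47 with APOLD1 over 36.5% of its length, DDX19A and DDX19B as above, DDX46 with C5orf24 over 2.56%, and DDX5, DHX30 and DHX33 over 1.24% or less. A further limit is that 20 measured members overlap exons of a gene on the opposite strand, such as DHX32 with BCCIP over 10.4% of its length, and no label or header says whether the counting used the strand.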

How the data were processed

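RNA from 1 IP and 1 input of Huh-7 cells was analysed from a gene table and a peak table. The submitters' processing notes name Trimmomatic and STAR 2.5.3a. Not given in the sources used here: peak caller, counter, build and annotation. The gene values deposited by the authors are RPKM, a unit inferred from the values, since value times length gave equal totals for both libraries. Per the file headers the peak table holds a fold (ratio), a p-value and a false discovery rate, and the score the authors deposited equals -log2 of that rate. All values gave whole reads within 0.01 (100% in both libraries), and 0 columns belong to other samples.

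Ratios of RPKM carry exact (Clopper-Pearson) 95% intervals of the recovered reads, and quotients of ratios carry intervals from a normal approximation on the log scale. Calls use log2 with a pseudocount of 1 RPKM, which understates low genes, where the mean of the libraries is 1 RPKM or more. A peak belongs to the gene with the most exonic bases on its strand (at least 1). No p-value was computed and no count model fitted. The functions were tested on simulated data. Members, role lists and the lists of other RNA helicases and cofactors were chosen with earlier results of these data known. Named genes were, in each family, the 4 highest and 4 lowest ratios with at least 100 reads. Genes with 3 or more peaks were also named, as were related pairs and spliceosomal DEAH helicases set by name. The 2 highest and 2 lowest of each list of other RNA helicases or cofactors were named too. The other members, SNRNP200 and GPATCH4 were named after their values were seen. Planned protein features were not analysed here. Scripts ran under Python 3.11.15 with scipy 1.17.1 for intervals, pandas 2.3.3 and numpy 2.4.6 for tables, and matplotlib 3.10.9 for plots.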

Additional observations from a re-analysis of the deposited data

How the results depend on the processing

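The number of members at least 2-fold higher in the IP, 11, became 5 after centring on the median of all measured genes, 2 after scaling to protein-coding reads and 36 with equal RPKM sums. It stayed between 8 and 15 with the other pseudocounts, filters and members that share no exon bases. Both scalings shift all genes, and the median log2 ratio of measured protein-coding genes went from 0.17 to -0.13 and 1.24. Shares of all genes at these settings are not given, so 5, 2 and 36 are not particular to the members. The number at least 2-fold lower, 0, became 1 with a pseudocount of 0.1, without a filter and after scaling to protein-coding reads. The median log2 ratio of the DDX members turned from 0.22 to -0.060 after scaling to protein-coding reads and reached 1.37 with equal RPKM sums, and that of the DHX members moved from 0.63 to 0.26 and 1.81. The DHX median was above the DDX median by 0.16 to 0.53 over the alternative runs, with 0.16 for members that share no exon bases. Centring and both scalings move the families together, so those runs had little or no room to change the order. With a deposited fold of at least 3, members with a peak fell from 21 to 11 and their peaks from 64 to 16. The median deposited fold was 2.48 for member peaks and 2.71 for all 7643 deposited peaks, so this limit removes most peaks of the whole list too. The share of all genes with a peak at this limit is not given. Halving the reads and the limit of 100 reads were chosen after seeing the data. With reads halved, 24 of 26 intervals above 1 and 6 of 7 below 1 were counted. No paired analysis was possible because each group has 1 library. Depth limits the members with few input reads most, such as DDX12P and DDX28 with 4 each.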
